A study of Mus musculus with 24 samples.

Results

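The genes described here are 40 interferon response genes of the mouse, 27 from the type I response (Isg15, the Ifit, Oas and Mx genes and their partners) and 13 from the type II, or interferon-γ, response (the Gbp genes, Irgm1, Igtp, Iigp1, Irf1, Ido1, Psmb8, Psmb9 and Tap1). They were listed by symbol, with earlier results of these data known, out of 51138 genes in the count table, and all 40 were found in it. Bulk RNA sequencing had been done on whole ceramic constructs collected 2 weeks after they were placed under the skin of the back, in 6 groups of 4 samples, each from an individual animal. All hosts were Foxp3DTR/eGFP mice of both sexes, 8 to 9 weeks old, a strain whose regulatory T cells (Treg) can be killed with diphtheria toxin because the toxin's receptor is made wherever Foxp3 is. The granules of biphasic calcium phosphate (BCP) carried no cells in BCP, bone marrow mesenchymal stromal cells (MSC) of C57BL/6J mice in BCP+MSC, MSC treated beforehand with resolvin E1 (RvE1, a lipid that resolves inflammation) at 10 nM in BCP+MSC+RvE1, and MSC with activated Treg in BCP+MSC+Treg. In (dep)BCP+MSC, hosts of BCP+MSC constructs were given the toxin at 50 µg per kg of body weight, and in (dep)BCP+MSC+RvE1inj such hosts also had 1 µM RvE1 injected at the construct every day. The Treg had been sorted from spleens of the host strain and activated through CD3 and CD28. No group received toxin without carrying its receptor, so toxin, loss of Treg and the separate experiment cannot be told apart. The paper describes no injection without RvE1 in the other toxin-treated hosts, so RvE1 and the injection itself cannot be told apart either.

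Type I interferons (interferon-α and interferon-β) signal through the receptor IFNAR and a complex that contains STAT2 and IRF9, which binds the interferon-stimulated response element (ISRE) at antiviral genes. Interferon-γ, made mainly by T and NK cells, signals through IFNGR to the gamma-activated site (GAS), and it induces IRF1, guanylate-binding proteins, immunity-related GTPases and the machinery that loads MHC class I. Many genes answer to both, so that a gene's place in a list names its best-known inducer, not its only one.

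Promoter sequence was read for the members that RefSeq places on GRCm38.p6, from 250 bases before to 50 bases after the start of transcription, and 29 of the 40 members matched. An ISRE core, the letters GAAA followed after any 2 bases by GAAA again, was searched on both strands, where the opposite strand reads TTTC, any 2 bases and TTTC, and so were the letters TTCNNNGAA, a GAS core that reads alike on either strand. An ISRE match was present in 16 of the 29 promoters (55.2%), against 3.99% of all 27025 genes with a promoter. GAS matches were present in 9 (31%), against 9.55% of all. The windows below are shown because they carry the matches of genes whose values follow, with the matched bases in capitals and 12 bases on each side, 5′ to 3′ on the strand of the gene. The first 3 are of the type I list and hold paired or overlapping ISRE matches, Irgm1 holds ISRE matches alone, Igtp and Gbp7 hold both kinds, and Irf1 and Psmb8 hold GAS alone.
Isg15: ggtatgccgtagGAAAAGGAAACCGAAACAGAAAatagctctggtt
Ifit1: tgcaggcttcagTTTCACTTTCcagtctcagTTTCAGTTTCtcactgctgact
Ifit3: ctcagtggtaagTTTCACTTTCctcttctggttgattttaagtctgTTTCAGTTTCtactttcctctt
Irgm1: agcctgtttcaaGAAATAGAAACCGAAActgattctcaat
Igtp: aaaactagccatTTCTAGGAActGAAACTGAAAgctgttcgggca
Gbp7: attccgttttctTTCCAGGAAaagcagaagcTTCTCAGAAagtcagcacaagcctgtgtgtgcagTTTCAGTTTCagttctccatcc
Irf1: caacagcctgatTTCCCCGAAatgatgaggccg
Psmb8: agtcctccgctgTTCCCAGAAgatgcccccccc

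These windows lie at chr4:156200863-156200908 (Isg15, minus strand), chr19:34640773-34640825 (Ifit1, plus), chr19:34583361-34583428 (Ifit3, plus), chr11:48871423-48871462 (Irgm1, minus), chr11:58199499-58199543 (Igtp, plus), chr3:142530218-142530304 (Gbp7, plus), chr11:53769912-53769944 (Irf1, plus) and chr17:34198086-34198118 (Psmb8, plus). Counted from the start of transcription they span positions -90 to -45 in Isg15 and -57 to -13 in Igtp. Within the type I list 10 of 19 promoters held an ISRE match and 4 a GAS match, and within the type II list 6 and 5 of 10 did. In 9 member promoters neither set of letters was found in this window. A match is a description of the letters and was not tested for binding.

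**Figure D1:**
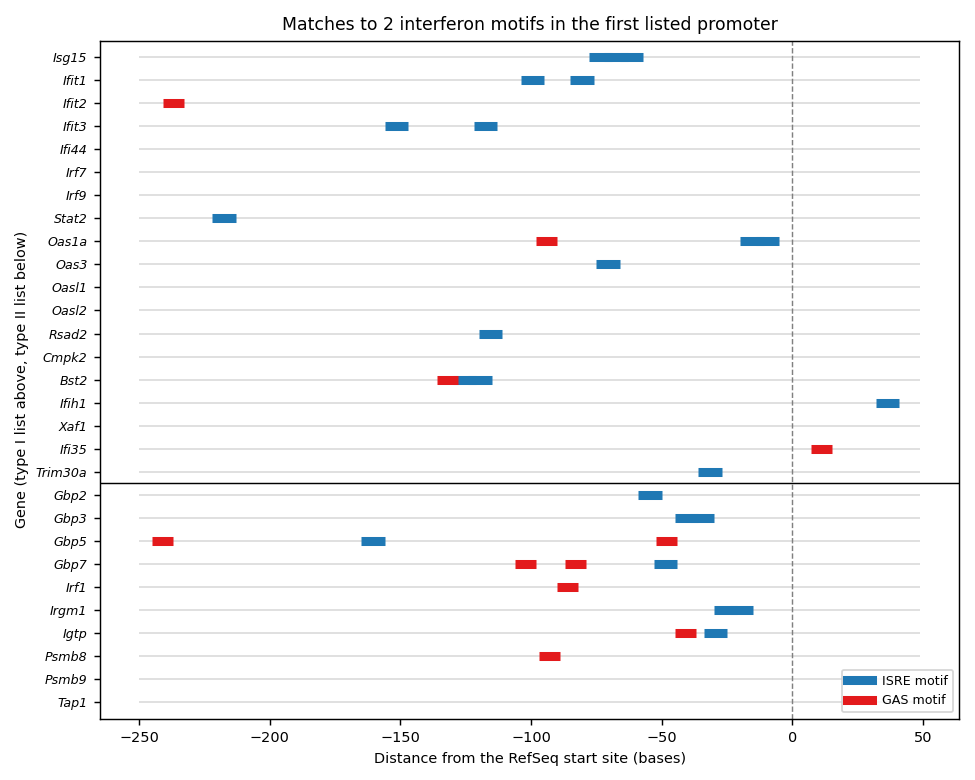
Positions of ISRE matches (blue) and GAS matches (red) in the promoters of 29 members, 1 row per gene, with the distance from the RefSeq start of transcription in bases on the x axis and the type I list above the line. Most matches lie before the start, and red marks are present in 5 of 10 type II and 4 of 19 type I promoters.

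Depth ranged from 8482701 counts in (dep)BCP+MSC sample 1 to 144417743, and 3 counts, taken as the smallest detectable level, correspond to 0.0208 to 0.354 CPM (counts per 1000000) by counting error alone. Values are CPM after TMM normalization, which scales for library size and composition. The (dep)BCP+MSC samples, numbered 1, 2, 4 and 5 in the table, fell into pairs: in 26 of 27 type I and 13 of 13 type II members both samples 1 and 2 were below both samples 4 and 5, as they were in 22.2% of the 30564 genes tested. Over 16 macrophage marker genes, all counted in every sample, the mean log2 CPM was 7.11 and 7.17 in samples 1 and 2 against 7.97 and 8.01 in samples 4 and 5, and over 18 T and NK cell markers it was 0.74 and 0.79 against 2.38 and 3.08. BCP+MSC sample 2 also stood apart, with a muscle marker level of 3.46 where the highest of its group was 9.57. In whole constructs fewer cells of a type and less RNA per cell cannot be told apart. Foxp3 itself was at 1.69, 0.891, 0.976 and 0.378 CPM in (dep)BCP+MSC, at 0.629 to 1.19 in BCP+MSC and at 0.298 to 1.07 in (dep)BCP+MSC+RvE1inj, so at week 2 its level did not mark the toxin-treated samples (edgeR, (dep)BCP+MSC against BCP+MSC, log2 fold change 0.04, SE 0.51, adjusted p = 0.989). The paper checked depletion elsewhere, by flow cytometry of lymph nodes and spleen, and reports fewer Treg there after toxin.

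Levels of different genes were compared as RPKM, which is CPM per kilobase of exon, as means over the 24 samples. Bst2, which encodes the virus-tethering protein tetherin, was the most abundant member at 176 RPKM, followed by the ubiquitin-like modifier Isg15 and the immunoproteasome subunit Psmb8 at 45.9 each. The lowest were Ifi44 at 0.77 and the tryptophan-degrading enzyme Ido1 at 0.807. The mean was above 10 RPKM for 9 of 27 type I and 8 of 13 type II members. From the lowest to the highest sample, CPM of the type I members spanned 2.87-fold to 36.9-fold (median 6.24), and of the 12 type II members other than Ido1 4.03-fold to 38.7-fold (median 7.57). Ido1 was the only member without a count in some sample.

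**Figure D2:**
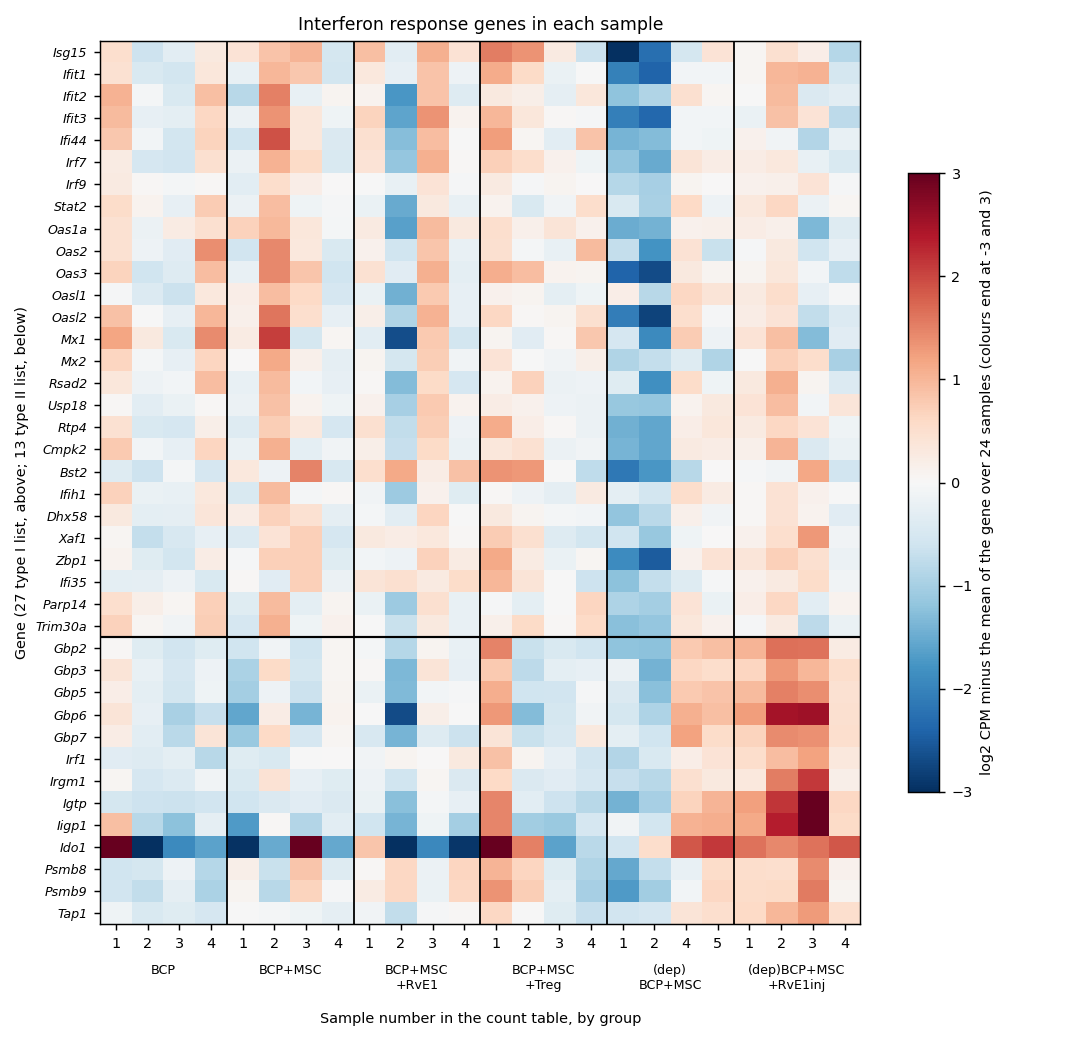
Log2 CPM of each of the 40 genes (rows, type I list above the line) in each of the 24 samples (columns, by group), as the difference from the gene's mean, with colours that end at -3 and 3. Blue columns at (dep)BCP+MSC samples 1 and 2 and red in the type II rows of (dep)BCP+MSC+RvE1inj are the main blocks, and BCP+MSC sample 2 is red over most type I rows.

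Few samples held most of the extremes. BCP+MSC sample 2 had the highest CPM of 17 type I members and of 0 type II members, whereas (dep)BCP+MSC+RvE1inj samples 3 and 2 had the highest of 8 and 4 type II members. The lowest values lay in (dep)BCP+MSC sample 2 for 16 members, in BCP+MSC+RvE1 sample 2 for 11 and in (dep)BCP+MSC sample 1 for 10. Around the group means, genes of the type I list moved together (median Pearson's r = 0.75 over 351 pairs of genes and 24 samples), as did genes of the type II list (0.71 over 78 pairs), with a median of 0.55 between the lists. These are descriptions over samples that share libraries, depth and cell composition. The type I members least like their own list were Ifi35 and Bst2, with median r of 0.16 each with the other type I members and of 0.54 and 0.47 with the type II members.

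The balance of the lists separated the toxin-treated from the other samples more clearly than either list did. It was taken as the mean log2 CPM of the 13 type II members minus that of the 27 type I members in the same sample, a difference in which the scaling of a library nearly drops out. The 4 values were -0.20, -0.52, -0.42 and -1.04 in BCP, -0.76, -1.21, -0.36 and -0.03 in BCP+MSC, and -0.29, -0.33, -0.92 and -0.31 in BCP+MSC+RvE1. In BCP+MSC+Treg they were 0.60, -0.54, -0.54 and -0.63. The toxin-treated samples were at 0.46, 0.69, 0.47 and 0.74 in (dep)BCP+MSC and at 0.67, 0.87, 1.77 and 0.75 in (dep)BCP+MSC+RvE1inj. It was thus above 0 in 8 of 8 toxin-treated samples and in 1 of 16 others, BCP+MSC+Treg sample 1, the only one that overlapped them. The value 0 has no meaning of its own, since it depends on the genes chosen for each list. Ido1, with few counts in several samples, weighs as 1 of the 13 type II members. The mean balance was 0.59 ± 0.15 in (dep)BCP+MSC, -0.59 ± 0.51 in BCP+MSC and 1.02 ± 0.51 in (dep)BCP+MSC+RvE1inj (SD, n = 4 each). Although samples 1 and 2 of (dep)BCP+MSC were far below samples 4 and 5 in both lists, they shared this balance: it exceeded the BCP+MSC mean by 1.164 in samples 1 and 2 and by 1.197 in samples 4 and 5. Being a score over the members, it was given no p-value.

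**Figure D3:**
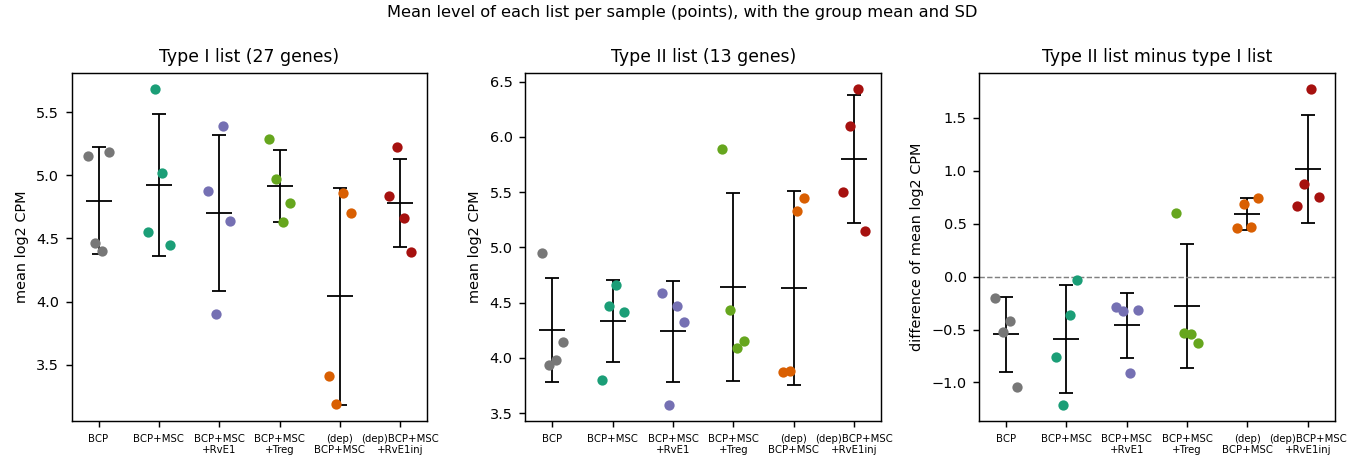
Mean log2 CPM of the type I list (left), the type II list (middle) and their difference (right) by group, with a point per sample and the group mean and SD as bars. The (dep)BCP+MSC points fall into a low and a high pair in the first 2 panels and lie together, above 0, in the third.

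With lists again chosen with earlier results known, the same difference was taken for other interferon genes of the table. It was that of 24 further type II genes minus 29 further type I genes. It ranged from -1.01 to -0.03 in the toxin-treated samples and from -1.85 to -0.42 in the others, of which the second highest was at -0.97, so these genes ordered the samples in a similar way with some overlap.

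Among the ligands, transcripts of interferon-α were close to absent. The 14 interferon-α genes summed to 19 counts over all 24 samples, with at most 3 in any sample for a gene, and the 2 interferon-λ genes had 0. Ifnb1, which encodes interferon-β, had a count in 10 samples and at most 12 counts, in BCP+MSC+Treg sample 1. Ifng, which encodes interferon-γ, had a count in 22 samples and at most 88. Its 4 values were 0.0546, 0.198, 0.0497 and 0.134 CPM in BCP+MSC, 0, 0.0723, 0.694 and 1.05 in (dep)BCP+MSC, and 0.514, 1.18, 2.54 and 0.118 in (dep)BCP+MSC+RvE1inj. Ifng was high in the samples numbered 4 and 5 of (dep)BCP+MSC, near the floor in samples 1 and 2, and in BCP+MSC+Treg it reached 0.998 in sample 1 against 0.112 to 0.324 in the others. Between (dep)BCP+MSC+RvE1inj and BCP+MSC its log2 fold change was 3.24 (SE 0.98, unadjusted p = 0.003, adjusted p = 0.129, edgeR), with the groups overlapping. Injected sample 4 (0.118 CPM) and BCP+MSC sample 1 (0.0546 CPM) lay below the 3-count floors of their libraries (0.197 and 0.0776 CPM).

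In the list of 16 receptors and signalling genes none passed the adjusted threshold in any comparison by edgeR, with unadjusted p under 0.05 for 2 higher and 4 lower in (dep)BCP+MSC against BCP+MSC. Of all genes, 9.66% were higher and 10.7% lower at that threshold. The higher ones of the list were the interferon-γ receptor chain Ifngr1 (log2 fold change 0.63, SE 0.19, adjusted p = 0.0563) and the interferon-λ receptor Ifnlr1. The groups of Ifngr1 did not overlap, as in 4.22% of all genes with (dep)BCP+MSC higher. The lower ones of the list were the second chain Ifngr2, Il10rb, the kinase Tyk2 and Irf5. Irf3, which is activated by nucleic acid sensors, and Irf8, a myeloid factor, stayed within 37.9 to 83.6 and 50.7 to 101 CPM over all samples, and neither differed at an unadjusted p under 0.05 in the toxin comparisons. Of 11 sensors of foreign nucleic acid, the kinase Tbk1 rose in (dep)BCP+MSC against BCP+MSC (log2 fold change 0.56, SE 0.16, adjusted p = 0.04), where 1.75% of all genes were higher at the adjusted threshold. Tlr3 and Ddx58, the gene of RIG-I, were lower at unadjusted p only, as were 10.7% of all genes at the unadjusted threshold.

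The groups without toxin were compared with BCP to ask what MSC, priming and Treg change, and with each other. These comparisons share the BCP or the BCP+MSC samples and are thus not independent. In BCP+MSC against BCP 0 of 40 members passed the adjusted threshold by edgeR, 0 an unadjusted p under 0.05 and 0 the adjusted threshold by DESeq2, where 2.99% and 2.07% of all 30564 genes tested were higher and lower at the unadjusted threshold. The smallest p-values were those of Bst2 (log2 fold change 0.89, SE 0.51, adjusted p = 0.888), Oasl1, an oligoadenylate synthetase-like protein (0.54, SE 0.36, adjusted p = 0.9), and Ifi35 (0.41, SE 0.28, adjusted p = 0.903). Isg15 was at 39.9, 18.3, 22.4 and 34.1 CPM in BCP and at 37.3, 50.9, 56.8 and 19.5 in BCP+MSC. In 0 of 40 members were the groups apart, where 1.25% of all genes were apart with BCP+MSC higher and 0.566% with it lower, and the median log2 fold change was 0.18 for the type I and 0.04 for the type II list, against 0.06 for all genes.

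With RvE1 priming, 2 of 40 members, both of the type I list, were higher than in BCP at an unadjusted p under 0.05, where 8.86% of all genes were higher and 6.7% lower, and 0 passed the adjusted threshold by edgeR or DESeq2. The count of 2 became 1 without BCP sample 1, 2 or 4 or BCP+MSC+RvE1 sample 2 or 4, and 7 without BCP+MSC+RvE1 sample 3. Marker genes of muscle and of fat cells had estimates above 0 in 12 of 12 (median 1.497) and 8 of 8 (1.706). With the level of the muscle list in the fit the count was 0, and the part of fat cells was not tested. In 4 members (these 2, Psmb9 and Irf1) the groups did not overlap, with priming higher, where that held for 4.79% of all genes, and in 0 with priming lower (5.8%). The members' share was thus below that of genes at large at the unadjusted threshold and above it for groups apart with priming higher. Ifi35, an interferon-induced leucine zipper protein, was at 49.2, 52.4, 45.2 and 55.3 CPM in BCP+MSC+RvE1 and at 31, 31.2, 34.1 and 27.7 in BCP. All 4 primed samples were above all 4 BCP samples (log2 fold change 0.70, SE 0.28, adjusted p = 0.3). Bst2 was at 188, 290, 153 and 242 CPM against 101, 85.7, 126 and 92.2, also without overlap (1.11, SE 0.51, adjusted p = 0.31). Psmb9, an immunoproteasome subunit, had the next smallest p (0.97, SE 0.47, adjusted p = 0.326). Ifi35 and Bst2 are also the type I members whose variation followed the rest of their list least. The other type I members lay between -1.02 and 0.58, and the median of the type I list was -0.02 against 0.03 for all genes.

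BCP+MSC+RvE1 and BCP+MSC differed in 0 of 40 members at the adjusted threshold by edgeR or DESeq2 and in 0 at an unadjusted p under 0.05, where 1.33% of all genes were higher and 1.92% lower. Every member's groups overlapped, where they did not for 0.867% (higher) and 0.847% (lower) of all genes. Of the type I list 22 of 27 estimates were below 0, with a median of -0.24 against -0.04 for all genes. The smallest p-values belonged to the RNA sensor Ifih1 (log2 fold change -0.50, SE 0.30), Ido1 (-2.86, SE 1.76) and the antiviral GTPase Mx1 (-1.07, SE 0.67), each with adjusted p = 0.924. The estimate for Ido1 rests on BCP+MSC sample 3, at 7.28 CPM where the others were at 0.0273, 0.137 and 0.134, and it turned to 1.30 without that sample. Mx1 was at 10.7, 38.0, 6.22 and 9.37 CPM in BCP+MSC and at 7.28, 1.38, 15.6 and 6.15 with priming, so the group means differed mainly through BCP+MSC sample 2.

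With Treg, 4 of 40 members were higher than in BCP at an unadjusted p under 0.05 (Psmb9, Bst2, Ifi35 and Irf1), where 4.98% of all genes were higher and 2.62% lower, and 0 passed the adjusted threshold by edgeR or DESeq2. Psmb9 was at 120, 79.3, 38.7 and 23.9 CPM in BCP+MSC+Treg and at 31.7, 28.5, 39.2 and 24.7 in BCP (log2 fold change 1.08, SE 0.47, adjusted p = 0.614). Irf1, the transcription factor first in line after interferon-γ, was at 146, 83.7, 67.0 and 52.9 against 62.3, 60.8, 65.0 and 44.3 (0.59, SE 0.28, adjusted p = 0.614). The count of 4 became 0 without BCP sample 2 or 4 or BCP+MSC+Treg sample 1 or 2, and 1 without BCP sample 1. In each of the 4 genes sample 1 of BCP+MSC+Treg was the highest and sample 4 was no higher than the highest BCP sample. All 13 type II estimates were above 0, against BCP (median 0.33) and against BCP+MSC (median 0.34), but without sample 1 these medians were -0.20 and -0.16.

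Sample 1 of BCP+MSC+Treg stood out across the interferon-γ genes. Gbp2, a guanylate-binding protein that acts on vacuoles of pathogens, was at 140 CPM there and at 31.6, 36.5 and 33.0 in the other 3. Igtp, an immunity-related GTPase also called Irgm3, was at 107 against 31.1, 25.1 and 21.9, and Iigp1, another such GTPase, at 80.0 against 14.0, 13.4 and 20.4. The chemokines Cxcl9 and Cxcl10, which attract T cells through CXCR3, were at 41.5 and 23.5 CPM in that sample, against 2.80 to 5.72 and 4.93 to 19.0 in the rest of the group. Against BCP+MSC 0 of 40 members passed an unadjusted p under 0.05, where 1.29% of all genes were higher and 1.42% lower, and 0 the adjusted threshold by edgeR or DESeq2. The smallest p-values were those of Igtp (log2 fold change 0.71, SE 0.55), Gbp5 (0.52, SE 0.42) and Oasl1 (-0.43, SE 0.36), each with adjusted p = 1. Without sample 1 the estimates for Igtp and Gbp5 were -0.12 and -0.01.

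BCP+MSC+Treg and BCP+MSC+RvE1, the groups with added immunomodulation, also differed in 0 of 40 members at an unadjusted p under 0.05, where 1.23% of all genes were higher and 1.14% lower, and in 0 at the adjusted threshold by edgeR or DESeq2. The smallest p was that of Ido1 (log2 fold change 3.00, SE 1.77, adjusted p = 1), at 6.46, 1.38, 0.126 and 0.247 CPM with Treg and 0.844, 0, 0.0946 and 0.0298 with priming, followed by Gbp7 (0.63, SE 0.39) and Iigp1 (0.86, SE 0.64). Several of these Ido1 values rest on 5 or fewer counts, and the groups overlapped.

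After toxin without RvE1 injection, the estimates of the type I list against BCP+MSC were all below 0, whereas the sign of the type II median depended on which samples were used. In the comparison of (dep)BCP+MSC with BCP+MSC, 27 of 27 type I estimates were below 0 (median -0.66) and 10 of 13 type II estimates above 0 (median 0.18), against a median of -0.04 for all genes. At an unadjusted p under 0.05, 11 type I members and 0 type II members were lower, where 10.7% of all genes were, and 0 were higher, where 9.66% of all genes were. At the adjusted threshold 0 of 40 passed by edgeR, where 1.75% of all genes were higher and 2.17% lower, and 2 by DESeq2, where 9.35% of all genes passed in either direction. The share of members past the adjusted threshold was thus below that of genes at large by either tool. At the unadjusted threshold the type I members were lower more often than genes at large, in a comparison in which many genes differed.

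The samples numbered 1 and 2 carried these differences. Isg15 was at 2.19, 5.76, 19.2 and 36.9 CPM in (dep)BCP+MSC and at 37.3, 50.9, 56.8 and 19.5 in BCP+MSC (log2 fold change -1.34, SE 0.62, adjusted p = 0.226). Ifit1, which binds foreign RNA, was at 4.69, 3.59, 18.2 and 18.1 against 16.4, 38.3, 33.8 and 13.1 (-1.18, SE 0.50, adjusted p = 0.188). Irf7, which amplifies the type I response, was at 34.7, 27.6, 103 and 90.9 against 69.4, 162, 116 and 57.1 (-0.66, SE 0.44, adjusted p = 0.419). In each gene samples 1 and 2 lay below all BCP+MSC samples, whereas samples 4 and 5 lay among them or, for Isg15 in sample 4, just below the lowest. Both samples 1 and 2 were below all BCP+MSC samples in 24 of 27 type I and 6 of 13 type II members, and in 16.5% of all genes tested.

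Mx2, an antiviral GTPase, had the smallest p of the members, and it was the only member whose groups did not overlap, where 4.93% of all genes did so with (dep)BCP+MSC lower and 4.22% with it higher: 1.99, 2.26, 2.88 and 1.99 CPM against 3.82, 8.29, 4.17 and 3.09 (log2 fold change -1.08, SE 0.38, adjusted p = 0.105). Bst2 followed (-1.44, SE 0.52, adjusted p = 0.121), and then Dhx58, the regulator of RIG-I-like receptors also called LGP2 (-0.71, SE 0.27, adjusted p = 0.145). The other members lower at the unadjusted threshold were Ifi44, Ifi35, Oas1a, Irf9, Ifit3 and Oasl2, from -1.27 to -0.50. Oas2 was at 19.4, 9.20, 43.7 and 20.1 CPM against 21.4, 87.3, 40.3 and 23.6, and Stat2 at 39.0, 27.3, 80.6 and 48.2 against 47.4, 103, 49.5 and 52.1. Neither passed the unadjusted threshold, and their groups overlapped.

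The count of 11 was 0 when samples 4 and 5 alone stood for (dep)BCP+MSC (median type I log2 fold change -0.19) and 24 when samples 1 and 2 did (-1.56), when 24.5% of all genes passed in either direction. The median of the type II list was 0.68 with samples 4 and 5 alone, -0.54 with samples 1 and 2 alone and -0.01 without sample 5, so its sign depended on these samples. The count of 11 became 2 without BCP+MSC sample 2, 4 without BCP+MSC sample 3, and 2 without either (dep)BCP+MSC sample 1 or 2, and without (dep)BCP+MSC sample 5 the adjusted threshold was passed by 2 members, Isg15 and Bst2. Summed CPM of the 16 macrophage markers was 5834 to 9917 in (dep)BCP+MSC and 7986 to 11460 in BCP+MSC, with 3 of the markers lower and 2 higher at the unadjusted threshold. With the level of that list in the fit the count was 6, where 4262 of 30564 genes passed in either direction, against 6208 without it. Of 10 fibroblast and stromal markers 9 had estimates below 0 (median -1.20), and of 10 skin markers 10 above 0 (median 2.86), with a mean log2 CPM of 3.76 in (dep)BCP+MSC sample 1 and of -1.52 to -0.29 in the others of its group. Siglech, a marker of plasmacytoid dendritic cells, the main producers of interferon-α, was lower (log2 fold change -2.73, SE 0.74, adjusted p = 0.0377), as was Spib of the same 6-gene list (-1.71, SE 0.45, adjusted p = 0.0312), and the other 4 genes of that list did not pass. Of the 6 estimates 1 was above 0, at 1.19, and the median was -0.98. Summed CPM of the 6 genes went the other way, at 127.8 to 248 in (dep)BCP+MSC and 8.944 to 137.7 in BCP+MSC. The part of these cells in the result was not tested.

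**Figure D4:**
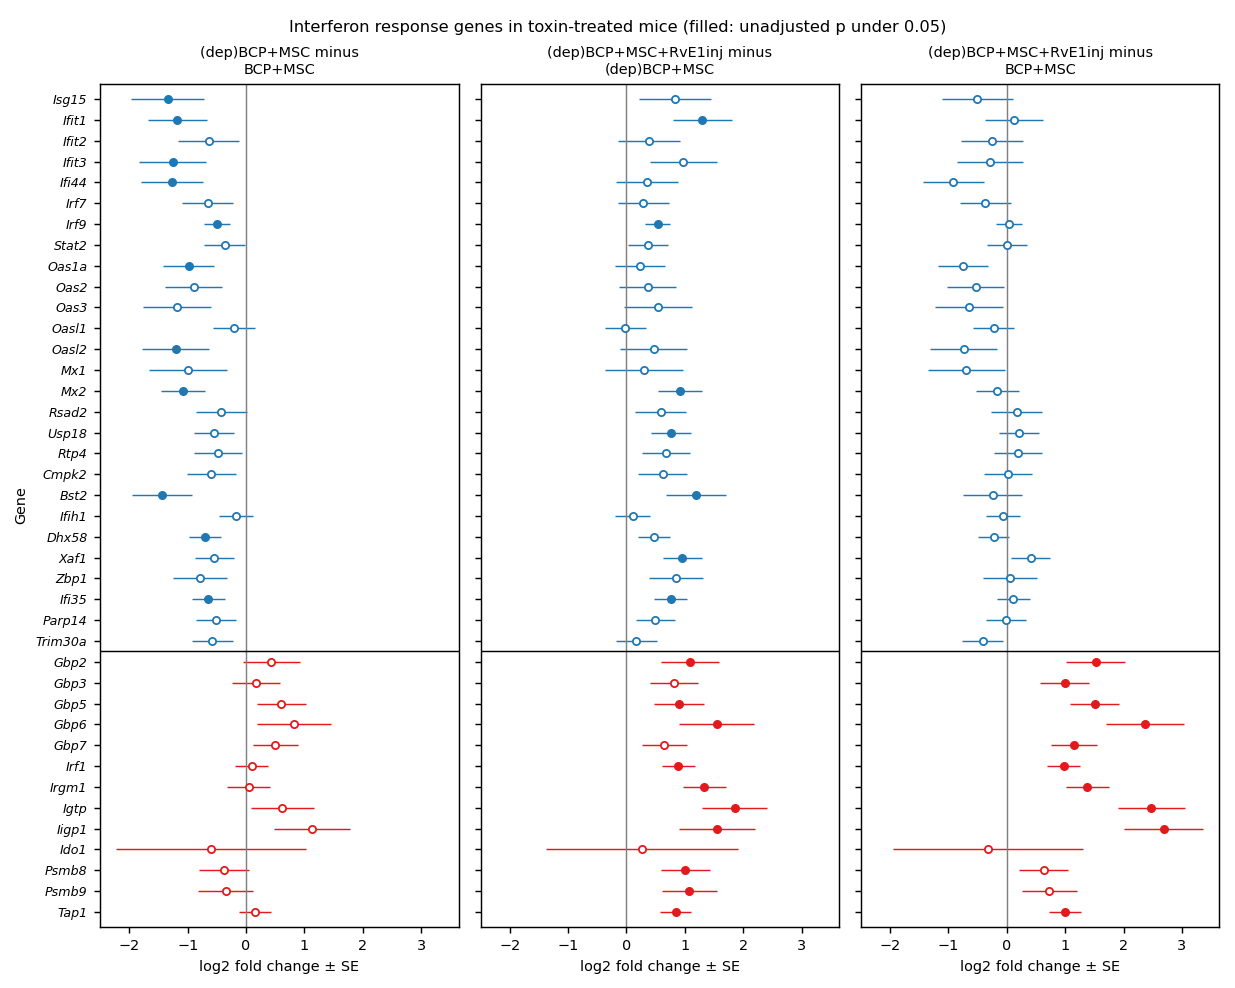
Log2 fold changes with their SE (x axis) of the 40 genes (y axis, type I in blue above the line, type II in red below) in the 3 comparisons with toxin-treated groups, filled where the unadjusted p is under 0.05. Left, every type I point lies below 0; right, 10 of the 13 type II points are filled and lie above 0.

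In toxin-treated hosts with RvE1 injection the interferon-γ genes were above BCP+MSC. Toxin and injection both differ in this comparison, and they cannot be told apart in it. In (dep)BCP+MSC+RvE1inj against BCP+MSC, 10 of 13 type II members and 0 of 27 type I members were higher at an unadjusted p under 0.05, where 6.54% of all genes were, and 12 of 13 type II estimates were above 0 (median 1.15, against -0.04 for all genes and -0.23 for the type I list). In 7 of the 13 the groups did not overlap, where that held, in the higher direction, for 2.77% of all genes. Igtp alone passed the adjusted threshold by edgeR, where 0.258% of all genes were higher, and 8 members did so by DESeq2, where 3.64% of all genes passed in either direction.

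Of the members, the immunity-related GTPases Iigp1 and Igtp, which act on vacuoles that hold pathogens, had the largest differences. Igtp (ENSMUSG00000078853.8, chromosome 11 from 58199556 to 58207591 on GRCm38) was at 91.2, 172, 308 and 59.3 CPM in (dep)BCP+MSC+RvE1inj and at 25.5, 28.8, 30.6 and 28.4 in BCP+MSC, so its lowest injected sample was above the highest BCP+MSC sample. It rose by a log2 fold change of 2.48 (SE 0.57, adjusted p = 0.0465, edgeR; exact permutation test, p = 0.0286, the smallest that 4 against 4 samples can give). The adjusted p was over the threshold without a filter on low counts (0.0694), on only the groups compared (0.0591), with the muscle list (0.0746), sex-linked genes (0.069) or the T and NK cell list (0.161) in the fit and on libraries of at least 20000000 counts (0.19). Its exons overlap those of Irgm2 on the same strand, so that reads shared by the pair were not counted for Igtp. Iigp1 was at 64.0, 149, 241 and 42.8 CPM against 8.95, 29.4, 15.6 and 23.1 (2.69, SE 0.68, adjusted p = 0.0714). Irgm1 (chromosome 11 from 48861968 to 48871683), a regulator of the family, was at 65.6, 151, 227 and 59.6 against 38.2, 70.8, 44.2 and 40.6, overlapping through BCP+MSC sample 2 (1.38, SE 0.37, adjusted p = 0.0859). Sample 3 was the highest of the 4 in each gene and sample 4 the lowest.

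Of the guanylate-binding proteins, which form a cluster on chromosome 3 from 142493978 (Gbp5) to 142638008 (Gbp2) apart from Gbp6 on chromosome 5, all 5 members passed the unadjusted threshold. Gbp2 was at 102, 157, 155 and 59.5 CPM against 32.8, 46.7, 33.2 and 52.0 (log2 fold change 1.52, SE 0.50, adjusted p = 0.179). Gbp5, which acts in the inflammasome response, was at 23.7, 34.7, 31.9 and 16.7 against 6.03, 10.9, 7.78 and 13.0 (1.504, SE 0.42, adjusted p = 0.101). In both genes the groups did not overlap, with sample 4 of the injected group the nearest to BCP+MSC. Gbp6 was at 12.4, 29.6, 30.3 and 7.23 against 1.75, 6.11, 1.95 and 5.55 (2.37, SE 0.66, adjusted p = 0.103). Gbp7 and Gbp3 had smaller differences (1.15, SE 0.40, and 0.99, SE 0.42), and their groups overlapped.

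Irf1 was at 114, 150, 183 and 99.1 CPM against 61.7, 57.3, 78.1 and 80.1 (log2 fold change 0.98, SE 0.28, adjusted p = 0.111), without overlap. Of the antigen-loading genes on chromosome 17 from 34181988 (Psmb9) to 34201454 (Psmb8), Tap1, a subunit of the peptide transporter, was at 106, 139, 169 and 98.8 against 69.0, 67.3, 63.6 and 57.4 (1.00, SE 0.27, adjusted p = 0.0846), also without overlap. Psmb8 was at 161, 158, 300 and 123 against 126, 70.6, 198 and 85.1 and did not pass the unadjusted threshold (0.63, SE 0.42). Tap1 and Psmb9 overlap on opposite strands, and the counting did not use strand. Ido1, at 1.5, 1.32, 1.49 and 1.78 against 0.0273, 0.137, 7.28 and 0.134, was even in the injected group and carried by 1 sample in BCP+MSC, and its estimate of -0.32 was the only type II estimate below 0.

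The type I members showed no such difference: 17 of 27 estimates were below 0, from -0.92 to 0.41 over the list, and none passed the unadjusted threshold by edgeR. Isg15 was at 28.9, 39.2, 31.9 and 15.3 CPM and Mx1 at 11.9, 16.8, 3.66 and 7.17, both among the BCP+MSC values. Markers of T and NK cells were also higher: their summed CPM was 187.9 to 230.7 in (dep)BCP+MSC+RvE1inj and 44.4 to 109.3 in BCP+MSC. Of the 18, 11 were higher and 1 lower at the unadjusted threshold and none at 0. Within the injected group their mean log2 CPM ranged from 2.811 to 3.165, and that of the type II list from 5.148 to 6.434. The marker level did not overlap between these groups, so a fit that includes it cannot fully separate it from group. With the level of the T and NK cell list in the fit, 4 in place of 10 type II members passed. Of all genes, 16.0% in place of 13.7% then passed in either direction. The log2 fold change of Igtp in that fit was 1.58 (SE 0.56, unadjusted p = 0.0111). Estimates were also above 0 for 7 of 7 B and plasma cell markers (median 1.18) and 6 of 6 erythroid markers (1.01), and for 0 of 10 fibroblast and stromal markers (-0.94). The part of these cells was not otherwise tested. Igtp also lost the adjusted threshold without any of the 4 BCP+MSC samples and without (dep)BCP+MSC+RvE1inj sample 2, 3 or 4, with estimates from 1.92 to 2.72 and adjusted p from 0.0366 to 0.181 over the 8 samples left out in turn, and 2 members passed without (dep)BCP+MSC+RvE1inj sample 1.

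**Figure D5:**
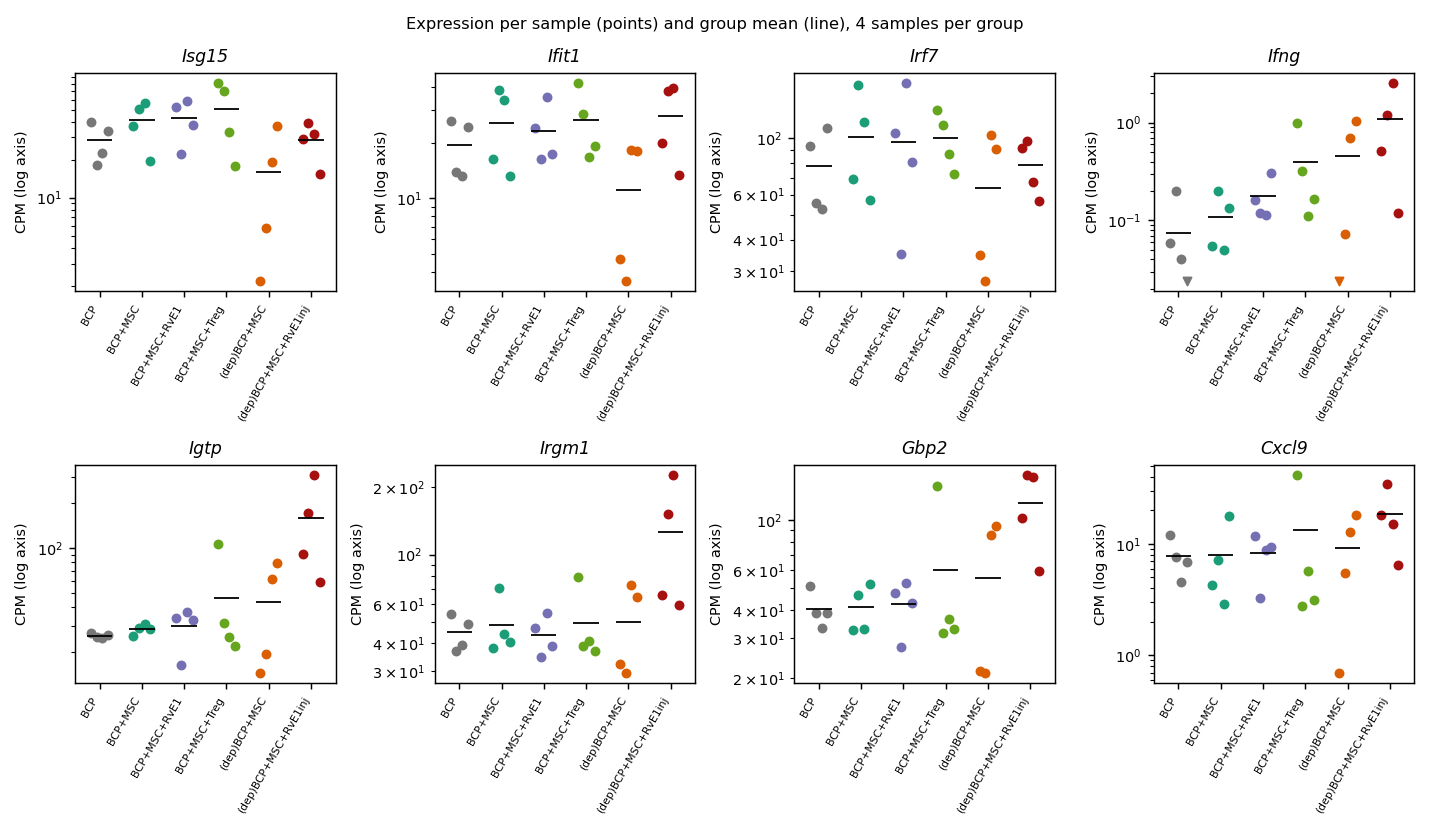
CPM on a log axis of 3 type I members (Isg15, Ifit1, Irf7), 3 type II members (Igtp, Irgm1, Gbp2), Ifng and Cxcl9 in each sample (points) by group (x axis), with the mean of 4 samples as a line; triangles at the bottom stand for samples with 0 counts. Igtp and Gbp2 of the injected group lie above all BCP+MSC points, and (dep)BCP+MSC splits into a low and a high pair.

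The toxin-treated groups differ by RvE1 and by the daily injection that carried it, which cannot be told apart. Between them, 17 of 40 members were higher in (dep)BCP+MSC+RvE1inj at an unadjusted p under 0.05, 10 of 13 type II and 7 of 27 type I, where 3.46% of all genes were. By edgeR and by DESeq2 0 passed the adjusted threshold, and no member had groups that did not overlap, where 1.3% of all genes did so in each direction. The smallest p-values were those of Irgm1 (log2 fold change 1.33, SE 0.37), Igtp (1.85, SE 0.56) and Irf1 (0.88, SE 0.28), each with adjusted p = 0.668. Irgm1 was at 32.3, 29.5, 73.2 and 64.4 CPM in (dep)BCP+MSC, Igtp at 14.5, 19.3, 61.3 and 78.6, and Irf1 at 42.9, 57.4, 91.0 and 105. Sample 5, and in Irgm1 and Igtp also sample 4, was above the lowest injected sample, and samples 1 and 2 were below all injected samples. Type II estimates were above 0 in 13 of 13 (median 1.01) and type I estimates in 26 of 27 (median 0.53), against 0.00 for all genes.

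These differences rested on the same pair of samples. With samples 4 and 5 alone in (dep)BCP+MSC, 0 type II and 0 type I members passed the unadjusted threshold (medians 0.48 and 0.05), and with samples 1 and 2 alone the medians were 1.94 and 1.26. The 10 type II members became 4 without sample 1 or sample 2 of (dep)BCP+MSC or sample 3 of (dep)BCP+MSC+RvE1inj, and 6 without sample 2 of the latter. The 7 type I members became 2, 3, 2 and 4 without those same samples, and 11 without (dep)BCP+MSC sample 4. In 7 of 13 type II members both samples 4 and 5 were above all BCP+MSC samples, and in 0 of 27 type I members and 8.46% of all genes tested. Summed CPM of the T and NK cell markers was 45.4 to 229 in (dep)BCP+MSC, and with their level in the fit 2 type II and 1 type I members passed. Of all genes, 3.1% passed in either direction in that fit, against 7.42% without the markers. Estimates were above 0 for 7 of 7 B and plasma cell markers (median 1.67), 6 of 6 erythroid markers (1.60) and 0 of 10 skin markers (-3.48), whose part was not tested.

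Whether RvE1 changed these genes differently when injected in depleted hosts than when used to prime MSC was asked with a contrast of both differences. All 40 estimates were above 0, with medians of 0.81 for the type I and 1.03 for the type II list against 0.06 for all genes. At an unadjusted p under 0.05, 5 members passed (Irgm1, Tap1, Igtp, Gbp7 and Mx2), where 2.19% of all genes were higher, and 0 passed the adjusted threshold by edgeR or DESeq2. The smallest p-values were those of Irgm1 (1.48, SE 0.52), Tap1 (0.91, SE 0.38) and Igtp (1.78, SE 0.77), each with adjusted p = 1. The count of 5 was 1 without BCP+MSC+RvE1 sample 2, (dep)BCP+MSC sample 1 or 2 or (dep)BCP+MSC+RvE1inj sample 3, 3 without sample 2 of BCP+MSC or of (dep)BCP+MSC+RvE1inj, 8 without BCP+MSC sample 1 or (dep)BCP+MSC+RvE1inj sample 4, and 10 to 12 without (dep)BCP+MSC sample 4 or 5 or BCP+MSC+RvE1 sample 3. With (dep)BCP+MSC samples 4 and 5 alone it was 0, and the medians were 0.26 and 0.49. The dose, the route, the injection itself and the hosts differed between the 2 uses of RvE1, and they cannot be told apart.

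Other interferon genes of the table, also listed with earlier results of these data known, went largely the same way as the members. They are thus not independent support. Of 29 further type I genes, 10 were lower and 0 higher in (dep)BCP+MSC against BCP+MSC at the unadjusted threshold. Of all genes, 10.7% were lower and 9.66% higher. Slfn5, an interferon-induced Schlafen gene, fell at the adjusted threshold (log2 fold change -1.005, SE 0.27, adjusted p = 0.0339), where 2.17% of all genes were lower. The median of the 29 was -0.56, and they were not counted with the (dep)BCP+MSC pairs taken apart. In (dep)BCP+MSC+RvE1inj against BCP+MSC, 9 of 24 further type II genes were higher and 0 lower, where 6.54% and 7.2% of all genes were. Of the 24 estimates 23 were above 0. Gbp4, a further guanylate-binding protein, rose (log2 fold change 2.04, SE 0.40, adjusted p = 0.0156), where 0.258% of all genes were higher at the adjusted threshold. Of the others that passed the unadjusted threshold, Irgm2, Gbp8, Gbp10, Gbp11, Ifi47, Tgtp1 and Tgtp2 are GTPases of these same families, and Cd274 encodes PD-L1. Tgtp1 and Tgtp2 are near-identical copies, and the counting command set no option for multiple alignments, so reads that align to both may be lost. The chemokines were not among them: Cxcl9 was at 18.3, 34.4, 15.1 and 6.51 CPM against 4.31, 7.22, 2.86 and 17.6 (1.22, SE 0.86, adjusted p = 0.562), and Cxcl10 at 6.59, 16.7, 13.1 and 4.38 against 6.03, 14.6, 6.16 and 5.49 (0.34, SE 0.49, adjusted p = 0.81). Ciita, the master regulator of MHC class II and itself an interferon-γ target, was lower in (dep)BCP+MSC at the unadjusted threshold (-1.54, SE 0.57, adjusted p = 0.135), opposite to Gbp4 (1.16, SE 0.39, adjusted p = 0.0954) in the same comparison.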

How the data were processed

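RNA of whole constructs of 24 mice was sequenced as stranded paired-end mRNA libraries. The authors aligned reads with HISAT2 2.0.5 and counted them per gene with featureCounts 1.5.2 (GENCODE M13, GRCm38). The deposited values are raw counts for 51138 genes. The recorded command sets no option for strand, multiple alignments or overlaps, so reads shared with overlapping genes were dropped and strand was ignored. By a later GENCODE release than the one used for counting, 16 of 40 members have an overlapping gene. The number by the release used for counting may differ. The submitters' notes also name DESeq2 1.42.0. All 24 columns were used. The (dep)BCP+MSC columns numbered 4 and 5 could be tied to their group but not to a replicate number.

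Genes with at least 10 counts in total (30564) entered edgeR 4.0.16 under R 4.3.3 (TMM, robust quasi-likelihood, 1 model of all 6 groups, 18 residual degrees of freedom) with Benjamini-Hochberg adjustment. The thresholds were an adjusted and an unadjusted p of 0.05. CPM and, with the deposited exon lengths, RPKM used TMM library sizes, and log2 CPM a prior count of 2. Exact two-sided permutation tests used 70 arrangements. Members named in a comparison are those past the adjusted threshold, otherwise the 3 with the smallest p. Isg15, Ifit1, Oas2, Mx1, Irf7, Stat2, Gbp2, Irgm1, Ido1, Irf1, Iigp1, Psmb8, Ifng, Ifnb1, Irf3, Irf8, Cxcl9 and Cxcl10 were named by rule, and others were named after their values were seen. A further gene of the rule is not reported here. The members and lists were chosen with earlier results of these data known. Replicates are separate animals.

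On simulated counts for (dep)BCP+MSC+RvE1inj against BCP+MSC (29653 genes, 200 changed) edgeR called 75 of 113 genes changed 4-fold, 9 of 87 changed 2-fold and 1 unchanged gene. The alternatives were RLE normalization, other filters, only the groups compared, a replicate block, covariates (library size, muscle, sex-linked genes), DESeq2, each sample left out and, added after seeing the data, macrophage and T and NK cell covariates, libraries of at least 20000000 counts and (dep)BCP+MSC pairs. Python 3.11.15, numpy 2.4.6, pandas 2.3.3 and matplotlib 3.10.9 were used.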

Additional observations from a re-analysis of the deposited data

Results flagged for a closer look

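Of 300 groups of 4 values examined, 13 had a highest or lowest sample whose gap to the next took up more of the group's range than Dixon's test allows, where chance gives about 1 in 20. BCP+MSC sample 2 stood above its group for Stat2 (103 CPM), Rsad2 (65.2 CPM), which encodes the antiviral enzyme viperin, Cmpk2 (26.8 CPM), a nucleotide kinase beside it in the genome, and Cxcl10 (14.6 CPM). BCP+MSC+Treg sample 1 stood above its group for Gbp2 (140 CPM), Irgm1 (79.5 CPM) and the balance of the type II minus the type I list (0.60). BCP+MSC+RvE1 sample 2 lay below its group for Gbp5 (4.87 CPM), Gbp6 (0.782 CPM) and Igtp (16.2 CPM), and sample 3 of that group for the balance (-0.92). Ifnb1 stood out in BCP sample 3 (0.0402 CPM) and (dep)BCP+MSC sample 2 (0.0482 CPM), where the other samples of the group had 0 counts, so that the gap follows from the zeros. These values rest on 5 and 2 counts, and the second lies below the 3-count floor of its library (0.0712 CPM).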

How the results depend on the processing

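In (dep)BCP+MSC+RvE1inj against BCP+MSC, 1 member passed the adjusted threshold. That number was 3 with the filterByExpr filter, 2 with library size as a covariate and 8 with DESeq2. It was 0 without a filter, on only the groups compared, with the muscle list or the T and NK cell list as a covariate and on libraries of at least 20000000 counts. In (dep)BCP+MSC against BCP+MSC it was 0, and it was 2 with DESeq2, 1 with the T and NK cell list and 16 with samples 1 and 2 alone, where 9.35%, 5.03% and 10.8% of all genes passed, against 3.92% otherwise. Between the toxin-treated groups it was 0, and 15 with samples 1 and 2 alone (2.31% of all genes), and for the contrast of both RvE1 differences 0 and 1 (0.395%). The 11 type I members lower at the unadjusted threshold in (dep)BCP+MSC became 5 on only the groups compared, 3 with the muscle list, 5 with sex-linked genes, 6 with the macrophage list, 3 on libraries of at least 20000000 counts, 0 with samples 4 and 5 alone and 24 with samples 1 and 2 alone. Between the toxin-treated groups the 10 type II and 7 type I members became 2 and 1 with the T and NK cell list, 4 and 2 on libraries of at least 20000000 counts and 0 and 0 with samples 4 and 5 alone, and type I became 21 with samples 1 and 2 alone. Between the toxin-treated groups 7.42% of all genes passed in the main fit and 3.1% with the T and NK cell list. With samples 4 and 5 alone 2.86% passed there, and 9.0% in (dep)BCP+MSC against BCP+MSC (20.3% in the main fit). The 10 type II members above BCP+MSC became 4 with the T and NK cell list, where 16.0% of all genes passed, against 13.7% in the main fit. For changes without another sample set the cause was not tested.

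With each sample left out, members past the adjusted threshold numbered 0 to 2 in (dep)BCP+MSC and 0 to 2 in (dep)BCP+MSC+RvE1inj against BCP+MSC. Type I members lower in (dep)BCP+MSC numbered 2 to 14, those higher between the toxin-treated groups 2 to 11 (type I) and 4 to 12 (type II), and type II members above BCP+MSC 9 to 11. The balance of the lists kept its direction: it differed by 0.97 to 1.37, 0.18 to 0.54 and 1.36 to 1.80 in these 3 comparisons ((dep)BCP+MSC against BCP+MSC, the toxin-treated groups, (dep)BCP+MSC+RvE1inj against BCP+MSC). The log2 fold change turned for Ido1 with priming against BCP+MSC (0.35 with sex-linked genes, 1.30 without BCP+MSC sample 3, range -5.27 to 1.30). Without BCP+MSC+Treg sample 1 it turned for Igtp (range -0.12 to 0.94) and Gbp5 (-0.012 to 0.72) against BCP+MSC and for Iigp1 against priming (-0.155 to 1.12).

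Same-numbered animals were not treated as paired in the main fit. Of 50 pairs of same-numbered samples 10 had a correlation of deviations over 0.1 (-0.445 to 0.341), and 6 of 22 samples correlated best with their own number. The labels give only a replicate number, and these correlations cannot decide whether the animals were paired. With the replicate block, which also leaves out (dep)BCP+MSC samples 4 and 5, the members past the adjusted threshold numbered 14 in (dep)BCP+MSC against BCP+MSC (8.12% of all genes), 10 between the toxin-treated groups (1.14%) and 2 in (dep)BCP+MSC+RvE1inj against BCP+MSC, and at the unadjusted threshold 21 type I members were lower in (dep)BCP+MSC and 20 higher with injection. Without the block, samples 1 and 2 alone gave similar numbers, as above.

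Of the values of single genes, medians and counts of members at the unadjusted threshold, 1823 stayed the same, 95 moved and 5 turned. Another 52 passed the adjusted threshold newly and 13 lost it. For genes, staying the same meant the same direction and side of the adjusted threshold, and for medians and counts a value close to the main one. Depth limits low genes such as Ifnb1 and Ido1.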
